A study of Mus musculus with 2 samples.

Results

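Olfactory receptors are odorant-binding G protein-coupled receptors that are normally made in the sensory neurons of the nose, where each neuron transcribes a single receptor gene out of the whole family. The signal runs from the receptor through the G protein Golf and adenylyl cyclase 3 to a cyclic nucleotide-gated channel. The receptors a neuron does not choose are held in silent heterochromatin, and most other tissues transcribe little of the family, so these genes serve here as a set that should be silent in embryonic stem (ES) cells. The receptors described are those with mouse symbols Olfr1200 to Olfr1499. A gene probe counted as a member when its RefSeq accession mapped to such a symbol, which gave 228 probes for 215 genes out of 39429 gene probes on the array and 20832 named genes. The gene table lists 290 symbols in this number range. All 209 members that carry an older MOR family name have class II names, the class of receptors typical of land vertebrates.

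The study asked whether Baf53b, the actin-like subunit of the BAF chromatin remodelling complex in neurons, can replace Baf53a, the subunit used in ES cells. Both arrays came from E14-derived Tet-inducible Baf53a cKO ES cells, in which both endogenous Baf53a alleles had been mutated by CRISPR/Cas9 and a CRISPR/Cas9-resistant Baf53a transgene is shut off by tetracycline (Tet). The Baf53a-expressing cells (1 array) received a pCAGIP-Myc vector with Baf53a and the Baf53b-expressing cells (1 array) the same vector with Baf53b. Tet at 1 μg/mL was added 48 h after transfection and kept for 6 days, and all cells were grown on gelatin in medium with LIF. The line is a single clone, and each condition is a single RNA sample, so no difference below has a replicate check and no p-value is given. Cells were bulk samples, in which fewer cells with a transcript and less transcript per cell cannot be told apart.

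Values are processed signals, that is background-subtracted Cy3 intensities in arbitrary units, and the error given with ± is the scanner software's own model error for that spot, which is no replicate error. A probe was counted as detected when the software flagged it well above background. Among gene probes, the lowest signal with that flag was 8.45 for the Baf53a-expressing and 9.75 for the Baf53b-expressing cells. The 75th percentile of all gene probes, to which log2 differences are scaled, was 1161 and 1128. The flag was set for 5 of the 153 negative control spots in Baf53a-expressing cells and for 0 of them in Baf53b-expressing cells. All 8 ES cell markers were detected on both arrays, with signals from 4356 for Nanog to 162854 for Dppa5a in Baf53a-expressing cells and from 3919 to 160255 in Baf53b-expressing cells. The Actl6b probe, for the gene of Baf53b, read 3.40 and 119 (at least a 14.5-fold rise with Baf53b), and the Actl6a probe, for the gene of Baf53a, read 3806 and 3600. A probe for Actl6a may read transcripts of the mutated alleles, any left from the transgene and, in Baf53a-expressing cells only, those of the vector. Which of them it reads was not tested, so it checks neither label.

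The start regions of 5 receptors are shown because the 4 largest differences between the arrays and the brightest receptor probe belong to them. They are RefSeq windows of 300 bases in GRCm38.p6, 250 bases before and 50 after the annotated start, and capitals mark each CG dinucleotide and the 3 bases at the annotated start. The windows are chr2:111780063-111780362 on the plus strand for Olfr1302, chr2:89363378-89363677 on the minus strand for Olfr1234, chr7:6459976-6460275 on the plus strand for Olfr1336, chr2:88794134-88794433 on the plus strand for Olfr1201 and chr2:89283082-89283381 on the minus strand for Olfr1229.
Olfr1302: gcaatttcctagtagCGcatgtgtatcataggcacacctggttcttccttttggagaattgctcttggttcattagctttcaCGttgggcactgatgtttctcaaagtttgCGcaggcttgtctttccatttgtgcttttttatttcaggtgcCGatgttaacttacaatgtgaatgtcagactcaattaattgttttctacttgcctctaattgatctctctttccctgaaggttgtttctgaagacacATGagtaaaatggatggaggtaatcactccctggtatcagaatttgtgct
Olfr1234: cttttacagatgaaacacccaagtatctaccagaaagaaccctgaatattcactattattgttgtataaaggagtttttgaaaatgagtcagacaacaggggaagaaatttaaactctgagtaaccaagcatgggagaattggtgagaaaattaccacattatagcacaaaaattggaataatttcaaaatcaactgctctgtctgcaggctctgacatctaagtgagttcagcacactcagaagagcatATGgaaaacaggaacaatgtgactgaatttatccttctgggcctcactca
Olfr1336: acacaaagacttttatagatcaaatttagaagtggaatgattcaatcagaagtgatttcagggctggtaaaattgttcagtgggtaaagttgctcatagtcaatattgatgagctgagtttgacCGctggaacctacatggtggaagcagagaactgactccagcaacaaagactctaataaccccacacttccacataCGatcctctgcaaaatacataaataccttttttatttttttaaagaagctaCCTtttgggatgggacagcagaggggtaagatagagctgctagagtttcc
Olfr1201: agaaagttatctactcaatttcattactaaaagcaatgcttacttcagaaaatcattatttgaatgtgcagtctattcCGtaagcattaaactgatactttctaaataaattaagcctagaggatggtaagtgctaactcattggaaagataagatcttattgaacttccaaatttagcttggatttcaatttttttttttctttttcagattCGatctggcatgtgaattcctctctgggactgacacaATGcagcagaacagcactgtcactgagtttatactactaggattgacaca
Olfr1229: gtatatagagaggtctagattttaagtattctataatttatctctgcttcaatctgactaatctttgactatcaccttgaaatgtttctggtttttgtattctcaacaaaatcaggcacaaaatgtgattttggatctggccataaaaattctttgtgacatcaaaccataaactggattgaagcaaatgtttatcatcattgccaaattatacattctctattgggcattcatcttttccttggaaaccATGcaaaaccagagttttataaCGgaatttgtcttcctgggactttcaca

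These windows are poor in CG dinucleotides, with 4 for Olfr1302, 2 each for Olfr1336 and Olfr1201, 1 for Olfr1229 and 0 for Olfr1234. Of the 193 member windows in the table, which cover 192 of the genes, the median count was 1, against 1 for the other Olfr windows and 7 over all 32851 windows. Their median GC content was 35.7%, against 35.0% for other Olfr windows and 52.7% for all. In 152 of the 193 windows (78.8%) the annotated start is an ATG, so the gene model there starts at the coding sequence and the window may not hold the promoter used in neurons. The following letter patterns were searched on both strands. The homeodomain core TAATTA, of the kind that Lhx2 binds, was present in 17.6% of member windows, 18.8% of other Olfr windows and 5.29% of all windows. The Ebf core CCCNNGGG was present in 3.11%, 3.05% and 13.7%, and the TATA box letters TATAAA in 37.3%, 42% and 13.6%. Of the windows printed, those of Olfr1234 and Olfr1336 hold TATAAA on one strand or the other before the annotated start. Those of Olfr1201 and Olfr1229 hold it only after that start, and none of the patterns is in that of Olfr1302.

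The same measures were taken over the members by detection, with no test. TAATTA was present in 19.5% of the 41 windows of members detected on both arrays, in 21.4% of the 14 windows of members detected on 1 array, and in 16.7% of the 138 windows of the rest. In the same order, CCCNNGGG was present in 4.88%, 7.14% and 2.17%, and TATAAA in 31.7%, 42.9% and 38.4%. The median GC content was 38.3%, 37.0% and 35.2%, and the median count of CG was 1, 1.5 and 1. A match describes letters in a window and is not a binding site.

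Most of the receptors were not detected in either condition. In Baf53a-expressing cells 53 of 228 probes (23.2%, exact 95% binomial interval 17.9 to 29.3) were well above background, against 75.2% of all gene probes. In Baf53b-expressing cells 61 probes (26.8%, 21.1 to 33.0) were, against 76.4%. These intervals treat probes as independent and say nothing of the spread between cultures. The 929 probes of the other Olfr genes gave nearly the same shares, 24.1% and 25.2%. Probes for the vomeronasal receptors Vmn1r and Vmn2r, another chemosensory family, gave 29.4% and 31.8%, and those for the hair keratin-associated proteins (Krtap) gave 56.9% on both arrays. The member intervals overlap those of the other Olfr and the vomeronasal probes and lie below those of the Krtap probes and of all gene probes.

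**Figure D1:**
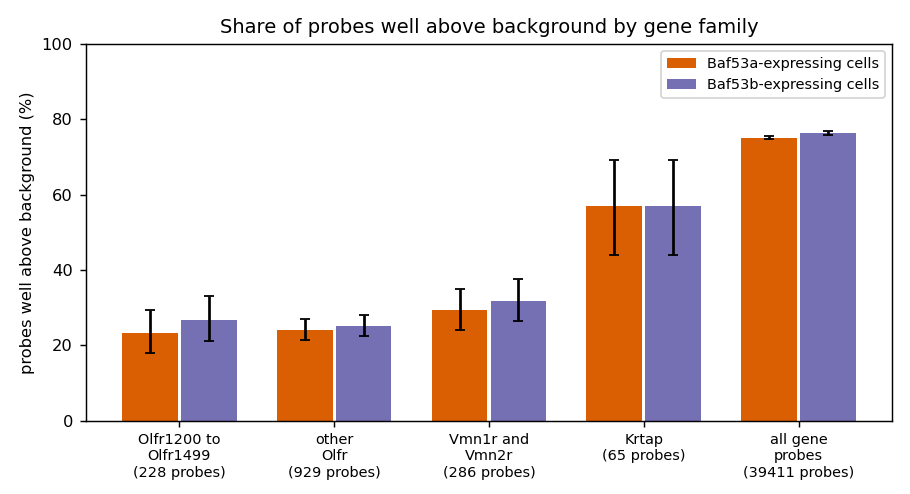
Percent of probes flagged well above background (y axis) by gene family (x axis) for each array; bars are the shares and error bars exact 95% binomial intervals over probes. The receptors stand at 23.2% and 26.8%, beside other Olfr probes at 24.1% and 25.2%, and all gene probes at 75.2% and 76.4%.

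The median processed signal of the 228 members was 2.59 in Baf53a-expressing cells and 2.49 in Baf53b-expressing cells, while the median of all gene probes was 105 and 106. The negative control spots had a median of 2.24 and 2.13 and a 95th percentile of 2.91 and 2.70. On each array 101 of the 228 members lay above that 95th percentile, more than carried the flag. For every spot that the software did not call significantly positive, the processed signal lay within 5% of the spot's model error, so such values stand for the noise estimate and hold no order among genes. By detection, 49 probes (48 genes) passed the flag on both arrays, 4 in Baf53a-expressing cells only, 12 in Baf53b-expressing cells only and 163 on neither. Of these 163, 137 read below 5 on both arrays, and the highest signals were 11.8 and 12.3, both from a probe for Olfr1459.

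**Figure D2:**
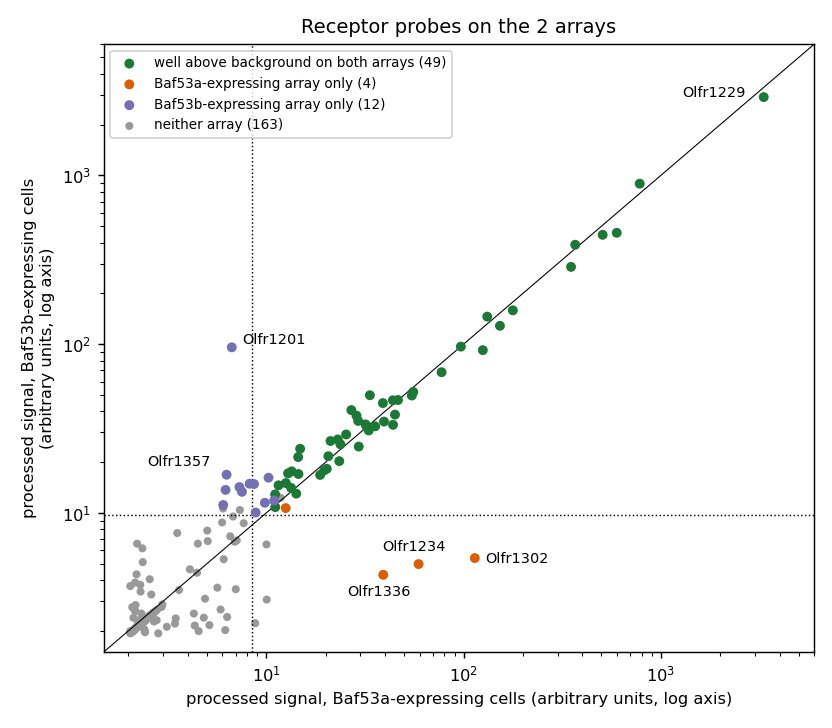
Processed signal of each of the 228 receptor probes in Baf53a-expressing (x) and Baf53b-expressing cells (y), both on log axes in arbitrary units, coloured by detection, with dotted lines at the lowest signal flagged well above background (8.45 and 9.75) and a line of equal signal. Most probes crowd at the lower left near the negative controls, 49 lie along the line, and Olfr1302, Olfr1234, Olfr1336 and Olfr1201 lie far from it.

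Among the receptors detected on both arrays, 0 rose and 0 fell by 2-fold or more with Baf53b, where 0.137% of all probes detected on both arrays rose and 0.116% fell. With 49 members, shares of that size correspond to less than a single probe, so these counts do not set the receptors apart. The log2 differences, Baf53b- minus Baf53a-expressing, ran from -0.40 to 0.73 with a median of 0.05 and an SD over probes of 0.28, and 45 of the 49 lay within 0.5 of 0. The 4 beyond 0.5 were all higher in Baf53b-expressing cells. They were named after their values were seen: Olfr1425 read 14.9 and 24.0 (0.73), Olfr1424 read 27.0 and 40.7 (0.63), Olfr1414 read 33.5 and 49.9 (0.61) and Olfr1222 read 14.5 and 21.5 (0.60). All 4 read below 100. Over the 9524 probes detected on both arrays that did not exceed 100 on both, the median was 0.08 and the SD 0.29. The share of all probes beyond 0.5 was not counted, so these 4 are not read as a rise of the receptors. Olfr1424 and Olfr1425 are MOR239 receptors of a run on chromosome 19, in which another MOR239 receptor, Olfr1428, read 54.7 and 49.7 (-0.10).

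A single receptor shows how far spots of the same probe differ within an array. The Olfr1307 probe was printed as 10 spots. Its spots read 14.7 to 26.0 with a median of 20.4 in Baf53a-expressing cells and 18.8 to 37.9 with a median of 21.5 in Baf53b-expressing cells, where 2 of the 10 were marked as outliers and left out of the probe's value. The ranges overlap, and the log2 difference of the probe was 0.14. The SD of log2 signal over all 10 spots, with the outliers kept in, was 0.30 on each array. This gives 0.42 for a difference between single spots, and the other 227 members were each printed once. Of the 49 differences, 42 lay within 0.42 of 0, 7 were above and 0 below. The same counts were not taken over all probes, and dim probes leaned toward Baf53b over all probes too, as given below. The spread of the Olfr1307 spots is technical and was measured at a dim signal, so brighter probes may vary less and cultures may vary more.

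**Figure D3:**
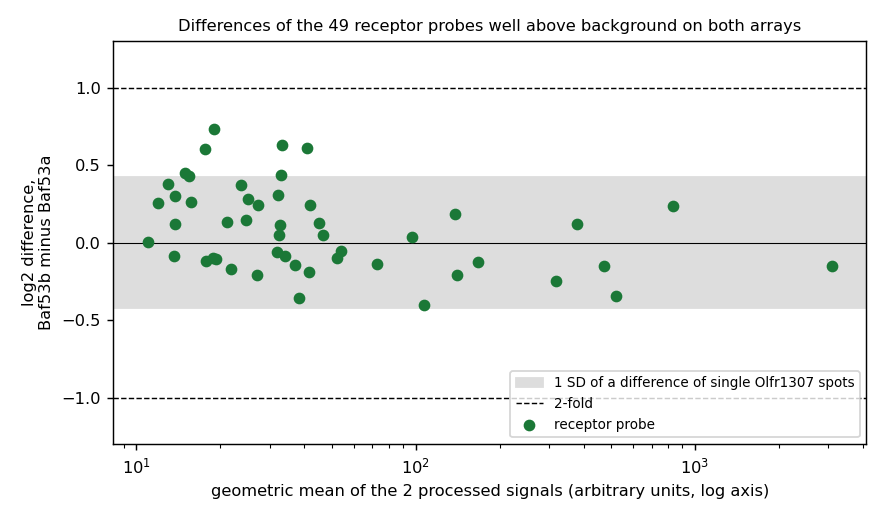
Log2 difference, Baf53b- minus Baf53a-expressing (y), against the geometric mean of the processed signals on a log axis in arbitrary units (x) for the 49 receptor probes detected on both arrays. The grey band is 1 SD (0.42) of a difference between single Olfr1307 spots and the dashed lines mark 2-fold; 42 points lie in the band, none reaches the dashed lines, and the 7 above the band are all dim.

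The direction of the small differences followed the signal, in the members as in all probes. Of the 40 members detected on both arrays that did not exceed 100 on both, 25 (62.5%) were above 0, with a median of 0.12 and an SD of 0.28. Over all 9524 such probes the share was 63.6%, the median 0.08 and the SD 0.29. The 9 members over 100 on both arrays had differences from -0.35 to 0.23 with a median of -0.15, and 6 were below 0. The 19723 probes over 100 had a median of -0.02 and an SD of 0.14.

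The 10 receptor probes with the highest mean signal were led by Olfr1229, a chromosome 2 receptor whose window is printed above. Its signal was 3320 ± 332 with Baf53a and 2908 ± 291 with Baf53b, a log2 difference of -0.15, and it was the only member above the 75th percentile of either array. Brightness depends on the probe as well as on the transcript, so these signals do not rank the receptors by expression. Olfr1443, on chromosome 19 beside Keg1, read 781 ± 78.1 and 893 ± 89.3 (0.23). Olfr1466, also a MOR202 receptor on chromosome 19, read 597 ± 59.8 and 457 ± 45.7 (-0.35). Olfr1368 on chromosome 13, which lies next to Trim27, read 507 ± 50.7 and 445 ± 44.5 (-0.15). These probes were bright on both arrays. The SD of the differences over all probes above 100 was 0.14, and Olfr1466 lay the farthest of these 4 from 0.

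Olfr1372-ps1, a transcribed pseudogene on chromosome 11, read 368 ± 36.9 and 388 ± 38.9 (0.12). Olfr1402, the sole member on chromosome 3, lies between Bcl9 and Chd1l and read 351 ± 35.1 and 287 ± 28.8 (-0.25). Olfr1252 on chromosome 2 read 178 ± 18.0 and 159 ± 16.0 (-0.12). The remaining 3 of the 10 come from short runs of receptors on chromosomes 1 and 7. Olfr1410 read 153 ± 15.5 and 128 ± 13.1 (-0.21), Olfr1347 read 132 ± 13.4 and 146 ± 14.7 (0.18), and Olfr1349 read 125 ± 12.7 and 92.2 ± 9.48 (-0.40). Of the 10 differences, 7 were below 0. The other 39 probes detected on both arrays read 11.1 to 96.9 with Baf53a and 10.8 to 96.8 with Baf53b, and 25 of them were above 0.

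The largest differences were in receptors detected on 1 array only. For these only a bound can be given, namely the brighter signal over either the dim signal or the array's lowest flagged signal, whichever is larger. Probes detected in Baf53a-expressing cells only numbered 4 of 228 (0.959% of all gene probes were in that class), and 3 of them had a bound of at least 2-fold (0.112% of all). Most gene probes were detected on both arrays (29247 of 39411), unlike the receptors (49 of 228), so the other Olfr probes are the closer comparison. Of those 929 probes, 21 were in that class and 3 had such a bound. Olfr1302 read 114 ± 11.6 with Baf53a and 5.41 ± 2.05 with Baf53b, lower by at least 11.4-fold. Its raw median intensity was 152.5 over a local background of 22 on the first array and 36 over 23.5 on the second. Olfr1234 read 59.2 ± 6.37 and 4.98 ± 2.31, lower by at least 5.90-fold. Olfr1336 read 39.2 ± 4.56 and 4.30 ± 2.27, lower by at least 3.90-fold. Olfr1302 and Olfr1234 lie on chromosome 2 and Olfr1336 on chromosome 7, and all 3 were clear of the flag's lowest signal on one array and under it on the other.

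Probes detected in Baf53b-expressing cells only numbered 12 of 228 (2.18% of all gene probes), of which 2 had a bound of at least 2-fold (0.206% of all). Of the 929 other Olfr probes, 31 were in that class and 6 had such a bound. Olfr1201 read 6.69 ± 2.34 with Baf53a and 95.8 ± 9.82 with Baf53b, higher by at least 11.7-fold, with raw medians of 34 over a background of 22 and 113 over 26. Olfr1357, a chromosome 10 receptor between Syde1 and Casp14, read 6.30 ± 2.35 and 16.9 ± 2.74, higher by at least 2.06-fold. The 5 receptors past 2-fold thus split 3 and 2 between the conditions, and each rests on a single spot per array. The split was 3 and 1 under quantile or median scaling, where Olfr1357 was lost, and 1 and 1 under normexp background correction, where Olfr1234, Olfr1336 and Olfr1357 were lost. In Baf53a-expressing cells, where 5 negative control spots carried the flag, the brightest of them read 80.4, and in Baf53b-expressing cells the brightest read 6.60. The signals of Olfr1234 and Olfr1336 thus lay below the brightest negative control of the array they were detected on, while those of Olfr1302, Olfr1201 and Olfr1357 lay above it.

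The other 11 receptors detected on 1 array had bounds of 1.11- to 1.82-fold. Olfr1260 alone was on the Baf53a side, with 12.6 and 10.7. The 10 on the Baf53b side (Olfr1247, Olfr1257, Olfr1301, Olfr1306, Olfr1386, Olfr1411, Olfr1412, Olfr1442, Olfr1446 and Olfr1457) read 6.06 to 10.97 with Baf53a and 10.1 to 16.2 with Baf53b. These lie close to the flag's limit on both arrays. Olfr1301, a MOR248 receptor like Olfr1302, read 7.32 ± 2.60 and 14.2 ± 2.79 and was not past 2-fold. Receptors of a family have similar sequences, and how far a probe also binds the transcript of a related receptor was not tested.

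Genes with more than 1 probe gave a check on detection. Of the 13 members with 2 probes, 11 had both probes in the same class. All of these but Olfr1382 had both probes detected on neither array. Among the genes with any detected probe, Olfr1382 was thus the only one whose probes agreed. Olfr1382 was detected by both probes on both arrays, with 55.6 and 52.1 for one and 23.8 and 25.5 for the other. Olfr1388 was detected on both arrays by a probe with 11.1 and 10.8 and on neither by a probe with 4.90 and 3.11. Olfr1436 was detected by a probe with 13.5 and 17.6 and not by one with 2.11 and 2.0. Where the probes of a gene disagreed, the detected one was dim.

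Detected receptors were unevenly spread over the chromosomes. Detection on at least 1 array ranged from 6 of 7 probes on chromosome 7, 6 of 10 on chromosome 1 and 11 of 20 on chromosome 11 to 24 of 101 on chromosome 2, 13 of 57 on chromosome 19, 2 of 12 on chromosome 4, 1 of 8 on chromosome 13, 1 of 6 on chromosome 10 and 0 of 6 on the X chromosome. The sole probe on chromosome 3 was detected. Receptor genes lie in runs of neighbours. On chromosome 19, 4 of 39 probes were detected in the run from Olfr1444 to Olfr1499 and 5 of 12 in the run from Olfr1423 to Olfr1441. On chromosome 2 the runs from Olfr1200 to Olfr1272 and from Olfr1275 to Olfr1318 had 14 of 62 (22.6%) and 10 of 39 (25.6%).

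**Figure D4:**
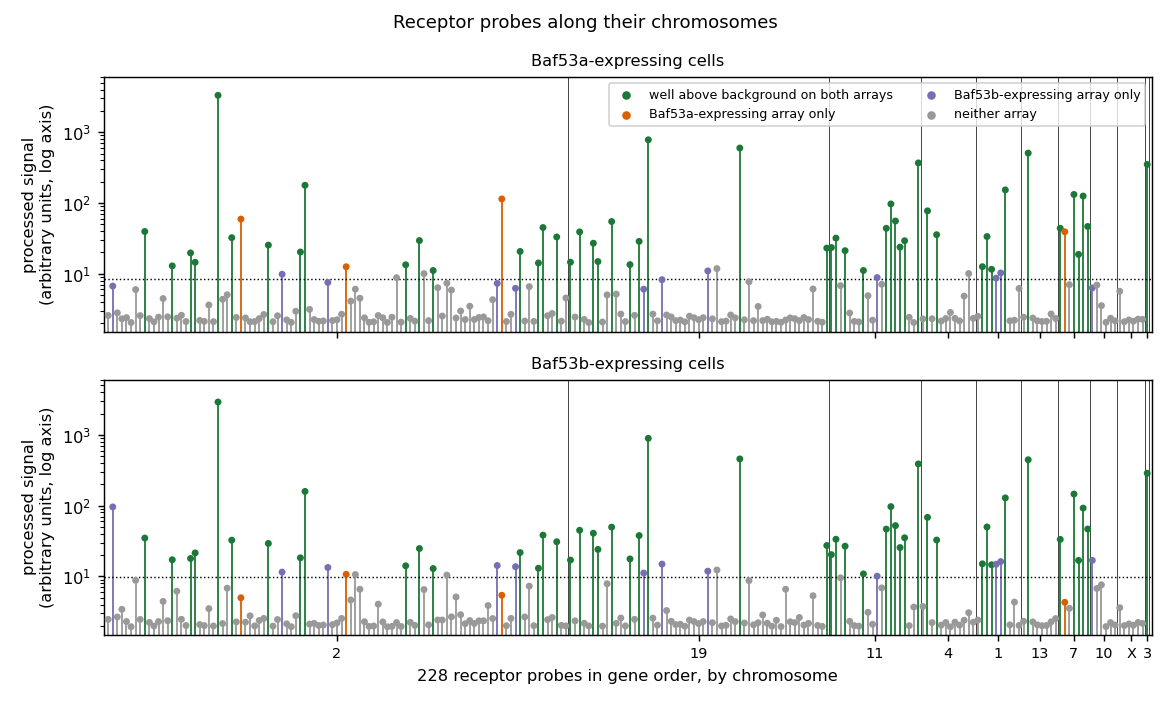
Processed signal (y, log axis, arbitrary units) of the 228 receptor probes in gene order along their chromosomes (x) for Baf53a-expressing (top) and Baf53b-expressing cells (bottom), coloured by detection, with the lowest signal flagged well above background dotted. The same probes stand up on both arrays, apart from the 16 detected on 1 array, and detected probes are dense on chromosomes 7, 1 and 11 and sparse along chromosomes 2 and 19.

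The short run on chromosome 7 was detected almost throughout. Besides Olfr1347 and Olfr1349 above, Olfr1344 read 43.9 and 33.3, Olfr1348 read 18.8 and 16.8, and Olfr1350, beside Zim1, read 46.6 and 46.7. Olfr1336 was detected in Baf53a-expressing cells only, and Olfr1346 on neither array (7.01 and 3.54). In the run from Olfr1410 to Olfr1416 on chromosome 1, Olfr1413 read 11.6 and 14.6, Olfr1414 33.5 and 49.9, and Olfr1415 12.6 and 15.0. Olfr1411 (10.3 and 16.2) and Olfr1412 (8.68 and 14.8) were detected in Baf53b-expressing cells only. Olfr1416 was detected on neither array (2.51 and 2.41). The run from Olfr1380 to Olfr1393 on chromosome 11 had 8 of 14 probes detected, among them Olfr1383 at 96.9 and 96.8 and Olfr1384 at 43.9 and 46.5. Most of these signals were dim, and Olfr1336 was the only receptor of these runs past 2-fold. In the chromosome 1 run, Olfr1413, Olfr1414 and Olfr1415 were higher with Baf53b by 0.30 to 0.61 in log2, and Olfr1410 was lower (-0.21). Olfr1411 and Olfr1412 had bounds of 1.62- and 1.76-fold. As given above, dim probes leaned toward higher values with Baf53b over all probes too.

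By MOR family, which groups receptors by protein sequence, all 4 MOR208 probes and 5 of 7 MOR103 probes were detected on at least 1 array. The larger families had 9 of 21 (MOR256), 6 of 17 (MOR233), 6 of 22 (MOR245), 4 of 14 (MOR231), 4 of 17 (MOR248) and 5 of 33 (MOR202), and 0 of 8 MOR259 probes were detected. Family and position go together, as related receptors are neighbours. Receptors beside a gene of another family were detected for 12 of 28 probes (42.9%), against 53 of 200 (26.5%) of those with receptors on both sides. Probes of genes spanning over 1000 bases were detected for 19 of 61 (31.1%) and of shorter ones for 46 of 167 (27.5%). These counts are over neighbouring and related genes and describe these arrays.

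The genes that carry the receptor signal in olfactory neurons were measured on the same arrays. Of 19 genes for odorant signalling and receptor export, 16 were well above background on both arrays and 3 (Pde1c, Stoml3 and Ncam2) on neither. Over all gene probes, 75.2% and 76.4% were detected on the single arrays and 29247 of 39411 on both. Those values count single probes, whereas a listed gene with several probes took its highest detection class. Of the 16, 0 differed by 2-fold or more, which at 0.137% and 0.116% over all probes does not set them apart. Their differences ran from -0.56 for Gng8, a G protein gamma subunit (55.3 and 36.3), to 0.39 for Adcy3, the olfactory adenylyl cyclase (36.8 and 46.8). Gnal, the alpha subunit of Golf, read 127 and 149, and Cnga2, a subunit of the cyclic nucleotide-gated channel, 55.0 and 63.2. The receptor exporters Rtp1 and Rtp2 read 13.4 and 13.2, and 50.8 and 42.9. Of 13 olfactory sensory neuron markers, most of which are in that list, 11 were detected on both arrays, the brightest being Gng13 at 635 and 599, and the defining marker Omp read 193 and 173. Stoml3 (3.52 and 2.04) and Ncam2 (2.61 and 2.34) were near the negative controls. The summed signal of the 13 neuron markers was 1426 and 1389, beside 358299 and 336332 for the 8 ES cell markers. The part of the neuron markers in the receptor signals was not tested. Of 4 fibroblast markers 3 were detected (Col1a1, Col1a2 and Thy1), with a summed signal of 1363 and 1268 over the list, and Postn was not (2.41 and 2.32).

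Of 10 genes that act in receptor choice, 9 were detected on both arrays and the homeobox gene Emx2 (13.2 and 7.02) on neither, and 0 differed by 2-fold or more. The shares over all probes, given with the signalling genes, apply here too, and with so few genes these counts do not set the list apart. Lhx2, the LIM homeodomain factor of receptor enhancers, read 319 and 325, and its cofactor Ldb1 1920 and 1825. Kdm1a, the histone demethylase that acts when a receptor is chosen, read 20241 and 18874, and Ebf1 to Ebf4 had differences from -0.11 (Ebf1) to 0.42 (Ebf2). All 12 genes of a list of heterochromatin genes were detected on both arrays, and their differences lay between -0.08 and 0.10. Among them were Trim28, a corepressor (62407 and 60022), Ehmt2, an H3K9 methyltransferase (6902 and 6822), and Lbr, the lamin B receptor that holds heterochromatin at the nuclear envelope (2911 and 2854). The median differences of the signalling, choice and heterochromatin lists were 0.01, -0.03 and -0.01, beside -0.001 over all probes detected on both arrays. The narrowest range of differences among these 3 lists was that of the heterochromatin genes, whose signals were 178 or more in Baf53a-expressing and 183 or more in Baf53b-expressing cells.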

How the data were processed

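Total RNA of 1 sample per condition was labelled with Cy3 and hybridised by the authors to an Agilent 4 x 44K mouse array in 1 colour. The deposited intensities are processed signals from Feature Extraction 11.0.1.1, background-subtracted and spatially detrended by the authors' software, with its detection flags and model error. The authors' value table holds ratios of these signals to a constant of each array (30479 of 30479 compared probes within 0.1%), and it lists 65 of the members, exactly those well above background on at least 1 array. It served as an alternative only.

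From the intensities, each probe was given the mean log2 processed signal of its spots, outlier spots left out (39411 of 39429 probes usable), less the array's 75th percentile over gene probes. A probe was detected when at least 50% of its spots carried the flag gIsWellAboveBG, and 2-fold was the limit for a call. Fluorescence on 2 arrays has no read depth, and the number of arrays limits the precision. Probes were named through their RefSeq accessions in a GRCm38.p6 gene table (27410 named). Its coordinates are not of the array's build and gave the chromosomes, gene order, neighbours and gene spans. A listed gene with several probes was given the mean of those in its highest detection class. The upstream windows are RefSeq's. In all, 3 genes with only an older synonym in the number range were not counted.

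The text names receptors past 2-fold, the 10 brightest detected on both arrays, genes whose probes disagree and the listed genes; others are said to be named after their values were seen or are given as parts of a whole run or class. The members and lists were chosen with earlier results of these data known. The 2-fold calls were tested on simulated arrays. Their spread was smaller than that of the dim probes here and their flags were assigned, so that run does not test detection. Alternatives were quantile, cyclic loess and median scaling, normexp background correction (offset 50), other detection rules, and 1 value per gene. Python 3.11.15, pandas 2.3.3, R 4.3.3 and limma 3.58.1 were used.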

Additional observations from a re-analysis of the deposited data

How the results depend on the processing

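With 1 array per condition no replicate could be left out, and no p-value was possible. No paired analysis was possible because each condition has 1 array. The share detected depended on the rule: 47.8% and 48.7% of receptor probes in Baf53a- and Baf53b-expressing cells passed the software's weaker flag for a significantly positive signal, and 44.3% on each array exceeded the 95th percentile of the negative controls, a rule chosen after seeing the data. Keeping outlier spots, counting genes, leaving out pseudogene symbols or adding older synonyms (also chosen after seeing the data) gave 22.9% to 24.2% and 26.5% to 27.9%. The receptors at least 2-fold apart among those detected on both arrays were 0 in each direction under every scaling and the stricter filter, but 6 higher and 6 lower with the weaker flag, and 9 and 10 with no filter, where noise values enter. Their median difference lay between -0.10 (stricter filter, 17 probes) and 0.12 (weaker flag), and was negative under quantile (-0.03), cyclic loess (-0.03) and median scaling (-0.003), so it has no settled sign. Of the bounds of at least 2-fold, 1 in place of 2 on the Baf53b side held under quantile and median scaling, where Olfr1357 had log2 bounds of 0.90 and 0.99. Under normexp, whose offset shrinks dim differences, 1 held on each side: Olfr1302 (1.38) and Olfr1201 (1.13), while Olfr1234, Olfr1336 and Olfr1357 had 0.83, 0.38 and 0.12. The 10 bright receptors kept the sign of their difference under all 5 of these settings.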
